A study of Arabidopsis thaliana with 12 samples.

Results

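RDM4 overexpression was compared with wild type in Arabidopsis thaliana leaves after 3 h of cold. The comparison rests on the 4 arrays taken at that time among the 12 of the series: 2 arrays of 35S::RDM4 plants, which carry RDM4 behind the constitutive 35S promoter, and 2 of wild type plants of the Col ecotype. Both groups were 2-week-old seedlings grown on MS plates and moved to 4 °C, and leaf RNA was pooled from at least 30 seedlings per plate. The series also holds 2 arrays of each genotype at 0 h and at 48 h. The labels call the 2 arrays of a group biological replicates but do not say whether they came from separate plates. The p-values therefore measure only the spread between such replicate samples, and the fit took this spread from all 12 arrays. Neither the number of transgenic lines used nor the hour of sampling is given in the sources used here.

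RDM4, also called DMS4, is an IWR1-type factor, named after a yeast protein that helps bring RNA polymerase II into the nucleus, and it works with polymerase II and polymerase V, one of the plant polymerases of RNA-directed DNA methylation. In that pathway polymerase IV makes the precursors of small RNAs and polymerase V makes the scaffold transcripts at which DNA methylation is placed. In the cold, Arabidopsis turns on the CBF (DREB1) transcription factors within hours, and these in turn raise COR genes, whose products protect membranes and proteins from freezing. The question named by the study's title is whether RDM4 acts on cold resistance through the CBF pathway.

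A level below is the log2 of the background-corrected signal minus the 75th percentile of its array, so that a gene at 0 is as bright as that percentile and a negative level means a dimmer spot. Levels compare one gene between groups, not one gene with another. A gene said to rise or fall at 3 h was higher or lower in 35S::RDM4 than in wild type at 3 h. These words do not give its response to cold. A change from 0 to 3 h is a change of that genotype difference. Of the 43603 probes, 73.8 to 76.1% were well above background on each of the 4 arrays, and replicate levels correlated at r = 0.9977 in 35S::RDM4 and 0.9976 in wild type across genes, which are not independent replicates. After the filter on dim probes 20360 genes were tested with limma, and a gene passed at an adjusted p below 0.05. No slide held both genotypes at 3 h, so within the 3 h arrays slide and genotype cannot be told apart. Each of the 2 scan days held 1 array of each genotype at 3 h. Over the series, both genotypes shared a slide only where 35S::RDM4 replicate 1 at 48 h lay beside wild type arrays. A fit with slide as a fixed block therefore links the genotypes through that 1 array. A call that ends in this fit cannot be assigned to slide or to genotype. All 9 leaf markers tested, among them RBCS1A, RCA, CA1 and CAB1, were well above background on all 4 arrays.

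At 3 h, 1114 of 20360 genes (5.47%) passed, 515 higher (2.53%) and 599 lower (2.94%) in 35S::RDM4 plants, and the median difference over all genes was -0.0073. Most differences were small: 1040 of the 1114 were under 1.5-fold, and 28 (0.138% of all genes) were at least 2-fold, 23 higher (0.113%) and 5 lower (0.0246%). For 14 of these 28, 1 genotype was not well above background on either array, so their folds were not measured. No balance is read from the split into higher and lower. At an unadjusted p below 0.05, 26.6% of all genes passed. All 1114 had arrays that did not overlap between the genotypes, as had 61.3% of all genes tested. The same direction within both scan days follows from this and adds nothing to it. The count moved widely with the processing: 17 genes passed after normexp background correction, 109 with slide as a fixed block, 16 of them among the 1114, and 31 to 895 when 1 of the 4 arrays was left out (31 without 35S::RDM4 replicate 2, 110 without wild type replicate 1, 121 without wild type replicate 2, 895 without 35S::RDM4 replicate 1). Whichever single array was left out, 18 genes passed, 11 higher and 7 lower; 4 of them, RDM4, AT3G01345, DIN11 and QQS, passed under every one of 20 alternative settings. AT5G63740, 1 of the 11 higher, was not well above background on either wild type array at 3 h, so its call sets signal against background. Of the 1114 genes, 332 also passed at 0 h (29.8% of the 3 h calls and 12% of the 2764 calls at 0 h), 251 in the same direction and 81 in the opposite one. At 0 h 13.6% of all genes passed (5.07% higher, 8.51% lower) and at 48 h 3.89% (2.71% higher, 1.18% lower). The difference at 3 h was itself unlike that at 0 h in 1637 genes (8.04%), in 60 of them (0.295%) by at least 2-fold; these 2 contrasts share the 3 h arrays.

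**Figure D1:**
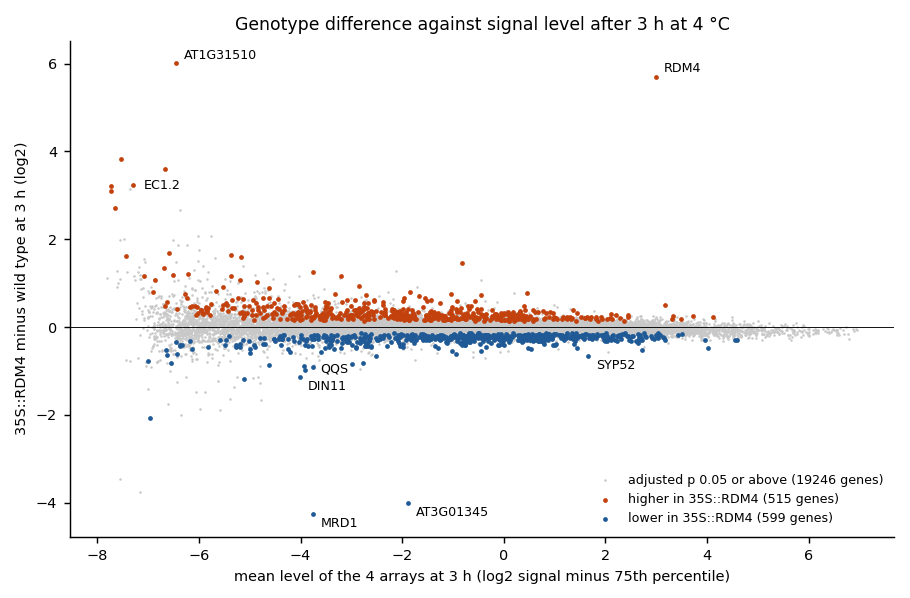
Each point is 1 of the 20360 genes tested: the 35S::RDM4 minus wild type difference at 3 h (log2) against the mean level of the 4 arrays (log2 signal minus the 75th percentile). Coloured points passed in limma (515 higher, 599 lower). Most lie close to 0, and RDM4 stands apart among the bright genes at 5.70.

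RDM4 itself (AT2G30280, on chromosome 2, as the digit after AT gives for each locus) had levels of 5.91 and 5.77 on the 35S::RDM4 arrays, against 0.16 and 0.13 on the wild type arrays. It was 52-fold higher (log2 5.70 ± 0.09, standard error, n = 2 each, limma adjusted p = 4.81e-08), with a 95% interval of 5.48 to 5.92. The array reads the summed transcript of the transgene and the resident gene. The difference was 5.46 at 0 h and 5.46 at 48 h, and the part of it that changed between 0 and 3 h did not pass (0.24, adjusted p = 0.29).

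Apart from RDM4, 2 of the largest differences at 3 h were falls that were present at every time. AT3G01345, which has no symbol in the reference table, had levels of -3.94 and -3.83 in 35S::RDM4 leaves, against 0.12 and 0.13 in wild type leaves. It was 16.1-fold lower (log2 -4.01 ± 0.22, limma adjusted p = 0.00025), and the differences at 0 h and 48 h were -3.54 and -3.98. MRD1, named for a transcript that falls in the methionine-overproducing mto1 mutant, had levels of -5.96 and -5.81 against -1.61 and -1.64, a 19.1-fold difference (log2 -4.26 ± 0.54, adjusted p = 0.0102), with -4.52 at 0 h and -3.33 at 48 h. Both genotypes were far apart at all 3 times for these genes, and neither difference moved between 0 and 3 h beyond the error (adjusted p = 0.37 for AT3G01345 and 0.85 for MRD1).

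Smaller falls that also passed at 0 h included those of 3 genes with a known role. QQS, a species-specific gene that shifts carbon between starch and protein, had levels of -4.32 and -4.51 in 35S::RDM4 and -3.44 and -3.41 in wild type (log2 -0.98 ± 0.07, limma adjusted p = 0.00144). NATA1, an acetyltransferase that makes the defence compound acetylornithine, had -4.17 and -4.24 against -3.33 and -3.27 (log2 -0.90 ± 0.15, adjusted p = 0.0244). SYP52, a syntaxin of the endosomal and vacuolar membranes, had 1.35 and 1.32 against 2.04 and 1.95 (log2 -0.66 ± 0.05, adjusted p = 0.00144), but its second probe differed by only -0.04, so the fall was seen by 1 of 2 probes. The differences of these 3 genes at 0 h (-0.43, -0.61 and -0.67) also passed, as did those of QQS and SYP52 at 48 h (-0.76 and -0.73). NATA1 was not well above background at 48 h on either 35S::RDM4 array. AT5G03090, not well above background in 35S::RDM4, was at least 2.66-fold lower (levels -7.75 and -8.25 against -5.63 and -6.25, adjusted p = 0.0214), and was also lower at 0 h and 48 h, where it again was not well above background in 35S::RDM4, so that no size is given. AT5G08250 had -4.75 and -5.36 against -4.21 and -4.19 (log2 -0.85, adjusted p = 0.0409); its difference passed at 0 h (-1.41) but not at 48 h (-0.39). Leaving out 35S::RDM4 replicate 2, wild type replicate 1 or wild type replicate 2 ended the calls of MRD1, NATA1, AT5G03090 and AT5G08250 (adjusted p = 0.051 to 0.191), while AT3G01345, QQS and SYP52 passed without any single array. With slide as a fixed block the calls of SYP52, NATA1 and AT5G03090 ended (0.0687 to 0.0924).

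**Figure D2:**
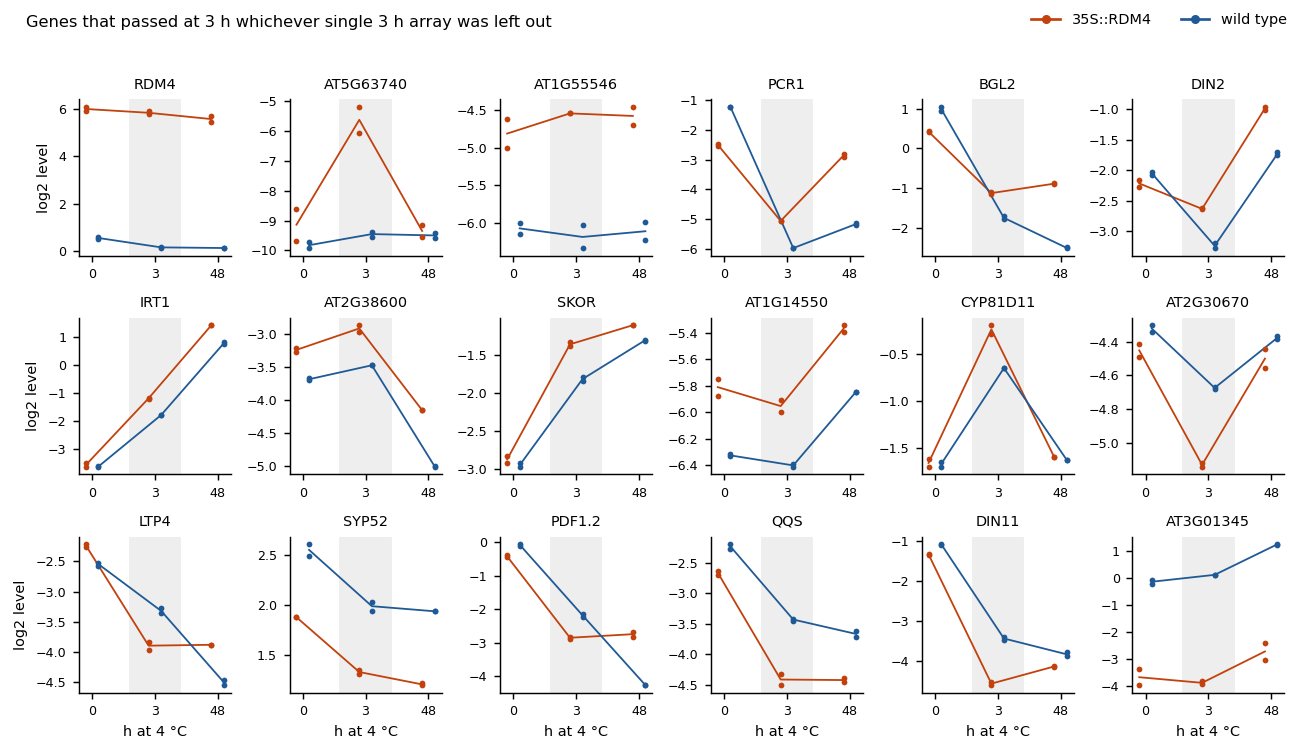
Levels (log2 signal minus the 75th percentile) at 0, 3 and 48 h for the 18 genes that passed at 3 h whichever single 3 h array was left out; points are arrays (2 per group, 35S::RDM4 drawn left of wild type), lines join group means, and grey marks 3 h. RDM4, AT1G55546, AT2G38600 and AT1G14550 passed as higher and SYP52, QQS, DIN11 and AT3G01345 as lower at all 3 times. By contrast, the genotypes' lines of PCR1, BGL2, DIN2, PDF1.2 and LTP4 cross. AT5G63740 was well above background only on the 35S::RDM4 arrays at 3 h.

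Among the 18 genes, 6 fall outside the rule by which genes were named and were picked after their values were seen. AT1G55546 had levels of -4.54 and -4.54 in 35S::RDM4, against -6.03 and -6.34 in wild type (log2 1.64 ± 0.15, limma adjusted p = 0.00544), and was also higher at 0 h (1.26) and 48 h (1.53). AT2G38600 (log2 0.56) and AT1G14550 (0.45) were likewise higher at all 3 times. Differences at 0 h that did not pass stood beside the rises of SKOR, an outward potassium channel of the root stele (-1.33 and -1.38 against -1.79 and -1.84, log2 0.46, adjusted p = 0.00544), and of CYP81D11, a cytochrome P450 induced by foreign chemicals (-0.18 and -0.28 against -0.64 and -0.65, log2 0.41, adjusted p = 0.00701). For both, the difference at 3 h was larger than at 0 h (by 0.38 and 0.40, adjusted p = 0.0105 and 0.0097). AT2G30670 was the only fall of the 6 (log2 -0.46, adjusted p = 0.0069). Apart from AT2G38600, their calls ended with slide as a fixed block (0.0569 to 0.0732).

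Several genes were well above background on both 35S::RDM4 arrays at 3 h and not well above it on either wild type array, so their folds are lower bounds: the mean of the 35S::RDM4 arrays over the lowest signal the wild type arrays could call, or the gene's own signal there if higher. Of the 1114 genes, 16 were of this kind and 2 of the reverse kind. Their numbers among all genes tested are not given, so no balance is read from this. The lowest level called above background was -7.66 and -7.05 on the 35S::RDM4 arrays and -7.25 and -7.06 on the wild type arrays. The 16 genes entered the test through the 35S::RDM4 arrays alone, so the adjusted p sets a measured signal against background. AT1G31510, without a symbol, had levels of -3.46 and -3.43 in 35S::RDM4, against -9.54 and -9.37 in wild type, and was at least 13.1-fold higher (limma adjusted p = 0.00742). AT1G28650 was at least 4.84-fold higher (levels -4.19 and -5.57 against -7.56 and -9.38, adjusted p = 0.0232) and AT5G63740 at least 2.9-fold (-6.06 and -5.17 against -9.53 and -9.37, adjusted p = 0.00564). EC1.2, a small protein that egg cells secrete to activate sperm, was at least 2.8-fold higher, with -6.16 and -5.19 against -8.56 and -9.26 (adjusted p = 0.0127). At 0 h none of these 4 genes was well above background in either genotype, and at 48 h only AT1G28650 was, on both wild type arrays and on 1 of the 2 35S::RDM4 arrays, so no difference was measurable at 0 h, nor at 48 h in the other 3. CYP71B25, a cytochrome P450, was at least 1.82-fold higher (adjusted p = 0.0374), AT5G35195 at least 1.97-fold (adjusted p = 0.00952) and PUP19, a purine permease, at least 1.76-fold (adjusted p = 0.0378). Only AT5G63740 passed without any single array; without 35S::RDM4 replicate 2 the calls of the other 6 ended (adjusted p = 0.0577 to 0.189), without 35S::RDM4 replicate 1 those of AT1G28650, CYP71B25 and PUP19 (0.0511 to 0.0917), without wild type replicate 1 those of AT5G35195, CYP71B25 and PUP19 (0.0583 to 0.185) and without wild type replicate 2 those of AT1G28650, EC1.2, CYP71B25 and PUP19 (0.0676 to 0.0893). The calls of AT1G28650, AT5G35195, CYP71B25 and PUP19 ended under the slide block (0.0967 to 0.583). Calls that stayed, that of AT5G63740 among them, likewise set signal against background and do not measure a fold.

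Among genes measured in both genotypes, the largest rises with a symbol were of mixed function. CYP71B9 and CYP71B38, both cytochrome P450 enzymes, had levels of -3.13 and -3.12 against -4.20 and -4.53 (log2 1.24 ± 0.14, limma adjusted p = 0.00742) and of -5.10 and -5.43 against -6.14 and -6.01 (log2 0.81, adjusted p = 0.043). DGK6, a diacylglycerol kinase of lipid signalling, had -4.61 and -4.70 in 35S::RDM4 and -5.89 and -5.58 in wild type (log2 1.08 ± 0.13, adjusted p = 0.0094). ANN6, a calcium-binding annexin, had -2.32 and -2.43 against -3.38 and -3.23 (log2 0.94, adjusted p = 0.0372), and WRKY74, a WRKY transcription factor, -2.92 and -2.96 against -3.75 and -3.63 (log2 0.75, adjusted p = 0.0341). These 5 genes were already higher in 35S::RDM4 at 0 h, by 0.66 to 0.93, and each of those differences passed. AGP5, an arabinogalactan protein of the cell wall, had -5.07 and -4.75 against -5.57 and -5.56 (log2 0.65, adjusted p = 0.0293), and 35S::RDM4 was 0.30 below wild type at 0 h without passing. All 6 calls ended without 35S::RDM4 replicate 2 (adjusted p = 0.058 to 0.18), those of ANN6, CYP71B38, WRKY74 and AGP5 without wild type replicate 1 (0.138 to 0.194) or 2 (0.106 to 0.122), and those of ANN6, CYP71B38 and WRKY74 without 35S::RDM4 replicate 1 (0.0765 to 0.12). The fixed slide block ended all 6 (0.0722 to 0.587).

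AT3G21900, AT3G21920 and AT3G21930 follow one another among the tested genes of chromosome 3, and all rose; the run was noticed after the values were seen. AT3G21900 had levels of -4.47 and -4.28 in 35S::RDM4, against -6.07 and -5.89 in wild type (log2 1.6, limma adjusted p = 0.0387). The other two rose by 1.15 and 1.02 (adjusted p = 0.00952 and 0.0435). At 0 h the differences were 1.18, 0.96 and 0.71, of which that of AT3G21920 passed. The 3 calls ended without 35S::RDM4 replicate 2 (adjusted p = 0.0651 to 0.216) and without wild type replicate 1 (0.0589 to 0.177), and those of AT3G21900 and AT3G21930 also without 35S::RDM4 replicate 1 (0.073 to 0.0997) or wild type replicate 2 (0.118 to 0.167). The fixed slide block ended all 3 (0.138 to 0.245). Neighbouring genes of similar sequence can share label on an array, so their calls are not independent.

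None of the 5 DREB1 genes tested passed at 3 h (limma; 2 had an unadjusted p below 0.05, as had 26.6% of all genes). CBF1 had levels of 1.48 and 1.49 in 35S::RDM4, against 1.32 and 1.34 in wild type (log2 0.16, 95% interval 0.05 to 0.27, adjusted p = 0.0889). CBF2 had 3.97 and 3.90 against 3.96 and 3.92, a difference of 0.00 with an interval of -0.69 to 0.69. CBF3 (DREB1A in the reference table) had 4.99 and 4.53 against 5.08 and 4.95 (log2 -0.25, interval -0.56 to 0.05, adjusted p = 0.27). The arrays of CBF1 did not overlap between the genotypes, and those of CBF2 and CBF3 did. CBF3 was lower in 35S::RDM4 on both scan days, and its size moved with single arrays: the difference was -0.49 without 35S::RDM4 replicate 1 (adjusted p = 0.0376) and -0.02 without 35S::RDM4 replicate 2 (adjusted p = 0.953). CBF4, a drought-responsive member, differed by 0.06 and DDF1, known for acting on gibberellin and salt tolerance, by 0.69 (adjusted p = 0.0647), with -3.86 and -3.89 against -4.55 and -4.59. The call of DDF1 was gained under 3 of the 20 alternatives, namely quantile scaling, only the compared arrays and array weights (lowest adjusted p = 0.0144); DDF2 was dim in both genotypes. The near-identical CBF genes can share label on an array, so their single values are uncertain. At the other times, CBF1 was lower in 35S::RDM4 at 0 h (-0.22, adjusted p = 0.0206) and higher at 48 h (0.67, adjusted p = 0.000174), and its signed difference moved upward between 0 and 3 h (by 0.38, adjusted p = 0.0172).

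Of 23 genes known to act downstream of the CBF factors, 0 were higher and 2 lower in 35S::RDM4 than in wild type at 3 h. The shares over all genes were 2.53% higher and 2.94% lower. The list's median difference was -0.078, with 9 positive and 14 negative values. COR15A, a chloroplast membrane protectant, had levels of 2.43 and 2.45 in 35S::RDM4, against 2.44 and 2.34 in wild type (log2 0.05, interval -0.15 to 0.24). The dehydrin COR47 had 5.46 and 5.19 against 5.71 and 5.16 (-0.11, interval -0.60 to 0.38), RD29A (LTI78) 2.83 and 2.95 against 2.73 and 2.79 (0.13, interval -0.15 to 0.40) and KIN1 4.71 and 4.65 against 4.94 and 4.69 (-0.13, interval -0.45 to 0.19). The genotypes overlapped in COR15A, COR47 and KIN1. The intervals leave room for differences of up to about the size of their bounds, so equality was not shown. GolS3, galactinol synthase of raffinose synthesis, had 0.60 and 0.57 against 0.87 and 0.87 (log2 -0.29, limma adjusted p = 0.0176), and LTP4, a lipid transfer protein, -3.83 and -3.96 against -3.36 and -3.28 (log2 -0.57 ± 0.06, adjusted p = 0.00609). LTP4 was higher in 35S::RDM4 at 0 h (0.31) and at 48 h (0.62), both passing, and passed at 3 h without any single array; its near-copy LTP3 differed by -0.31 at 3 h without passing.

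**Figure D3:**
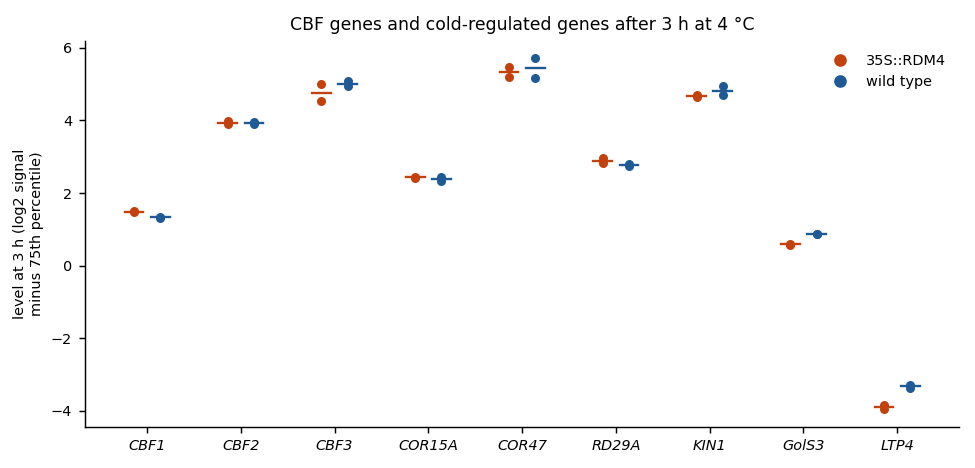
Levels at 3 h (log2 signal minus the 75th percentile) of 3 CBF genes and 6 of their downstream genes; points are arrays, 2 per genotype, and bars are means, with 35S::RDM4 left of wild type. GolS3 and LTP4 were lower in 35S::RDM4 and passed, the other 7 did not; heights do not compare between genes.

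Of the other early cold-induced transcription factors, 4 of 18 were higher and 0 lower in 35S::RDM4 than in wild type at 3 h. The shares over all genes were 2.53% higher and 2.94% lower. The list's median difference was 0.043, with 14 positive values. ERF5 and ERF6, ethylene response factors of stress signalling, had 0.95 and 1.03 against 0.61 and 0.75 (log2 0.31, limma adjusted p = 0.0378) and 2.06 and 1.99 against 1.78 and 1.82 (log2 0.22, adjusted p = 0.0266). WRKY40 rose by 0.27 (adjusted p = 0.0312) and RAV2, a repressor of flowering, by 0.20 (adjusted p = 0.0453). The same list held 9 lower genes at 0 h (median -0.19; 8.51% of all genes) and 4 higher genes at 48 h (median 0.12; 2.71%), and the change from 0 to 3 h passed as positive in 10 members, against 5.11% of all genes. With slide as a fixed block that last count was 1, and over all alternatives it ran from 1 to 11. Of 26 regulators placed upstream of the CBF genes 2 rose, MYB15, a repressor of CBF genes (0.18, adjusted p = 0.0487), and PIF3, a light-signalling repressor of them (0.14, adjusted p = 0.0484). Second probes of ERF6 differed by 0.00, of MYB15 by 0.07 and of PIF3 by -0.01. Without 35S::RDM4 replicate 2, wild type replicate 1 or wild type replicate 2 the calls of GolS3 and of these 6 regulators ended (adjusted p = 0.0797 to 0.24), and without 35S::RDM4 replicate 1 those of RAV2, ERF5, ERF6, PIF3 and MYB15 (0.0564 to 0.102). The fixed slide block ended all of these and the call of LTP4 (0.0732 to 0.274).

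Genes of the pathway RDM4 belongs to stood beside 5.47% of all genes passing and 26.6% with an unadjusted p below 0.05 (limma). Of 32 genes of RNA-directed DNA methylation and demethylation tested, RDM4 was the only one past the threshold, and 6 had an unadjusted p below 0.05. Among 20 polymerase subunits 2 rose and 1 fell, against 2.53% of all genes higher and 2.94% lower. NRPE1 (NRPD1B), the largest subunit of polymerase V, had levels of -1.84 and -1.78 in 35S::RDM4, against -2.05 and -1.96 in wild type (log2 0.19, limma adjusted p = 0.0384). Its second probe differed by 0.03. NRPB6B, a small subunit shared by several polymerases, rose by 0.14 (adjusted p = 0.0495), and NRPD7 fell by 0.25 (adjusted p = 0.034). All 3 calls ended whichever of the 4 arrays was left out (adjusted p = 0.0532 to 0.232), and with slide as a fixed block (0.0789 to 0.369). Of 54 genes of transcript elongation, Mediator and chromatin, 1 passed, VIP4 of the Paf1 complex (-0.24, adjusted p = 0.0457), and not without 35S::RDM4 replicate 2, wild type replicate 1 or wild type replicate 2 (0.122 to 0.268), nor with the slide block (0.136).

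Defence genes gave a mixed picture at 3 h that sat between lower values at 0 h and higher values at 48 h. In the salicylate list 2 of 26 genes rose and 1 fell at 3 h (median -0.015; 2.53% and 2.94% of all genes), whereas 16 were lower at 0 h (median -0.35) and 7 higher at 48 h (median 0.089). Over all genes 8.51% were lower at 0 h and 2.71% higher at 48 h. BGL2 (PR2), a glucanase that marks salicylate signalling, had levels of -1.16 and -1.1 in 35S::RDM4, against -1.71 and -1.79 in wild type (log2 0.62 ± 0.05, limma adjusted p = 0.0017). Its difference was -0.57 at 0 h and 1.62 at 48 h, and the value at 3 h lay between these. PR5, a thaumatin-like protein, went the other way at 3 h (0.59 and 0.56 against 0.77 and 0.81, log2 -0.21, adjusted p = 0.0266). For the defence WRKY factors the counts were 2 higher and 2 lower of 23 at 3 h, 14 lower at 0 h and 4 higher at 48 h; WRKY22 and WRKY40 rose by 0.33 and 0.27, and WRKY54 and WRKY60 fell by 0.20 and 0.24. The receptor list had 2 higher and 2 lower of 34 at 3 h, 17 lower at 0 h and 13 higher at 48 h. In it the cysteine-rich receptor-like kinase CRK4 rose (-3.10 and -3.04 against -3.43 and -3.36, log2 0.33, adjusted p = 0.0113), as did FRK1, a flagellin-induced kinase (0.16), while CRK14 fell by 0.43 and EFR, the receptor of bacterial EF-Tu, by 0.28.

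In the salicylate, WRKY and receptor lists the change of the genotype difference from 0 to 3 h passed as positive in 13, 12 and 10 genes and as negative in none, against 5.11% and 2.93% of all genes; over the alternatives these positive counts ran from 6 to 14, from 4 to 13 and from 6 to 13. The same direction was found in other lists, picked after their counts were seen. The change passed as positive in 9 of 17 root markers, 6 of 15 seed and embryo markers, 11 of 40 oxidative stress genes and 9 of 27 phosphate starvation genes, and as negative in 1, an oxidative stress gene. Other lists went the opposite way. There the change passed as negative in 8 of 18 low oxygen, 7 of 28 flavonoid, 5 of 24 auxin and 5 of 22 aliphatic glucosinolate genes. It passed as positive in 0, 1, 1 and 1 of these. Of the 11 genes that passed at 3 h in these lists, BGL2 passed without any single array; the calls of the other 10 ended without 35S::RDM4 replicate 2 (adjusted p = 0.0996 to 0.252) or wild type replicate 1 (0.0786 to 0.185), 9 of them without wild type replicate 2 (0.0893 to 0.171) and 4 without 35S::RDM4 replicate 1 (0.0542 to 0.0871). With slide as a fixed block all 11 ended (0.054 to 0.134).

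**Figure D4:**
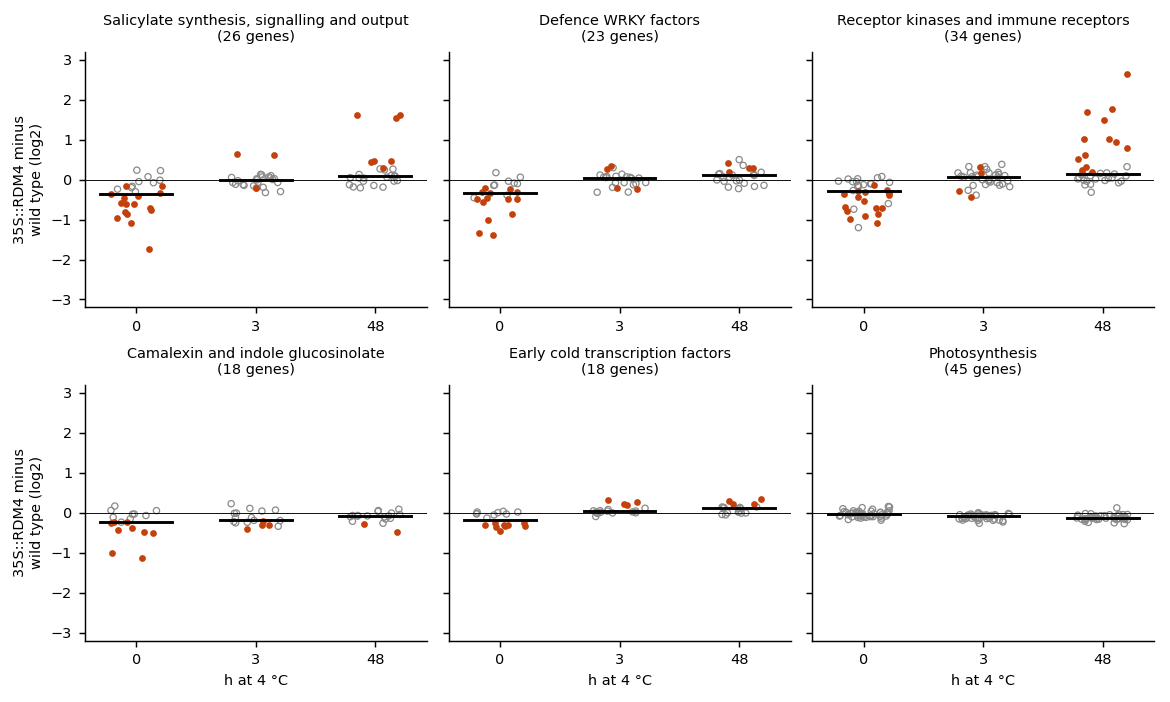
The 35S::RDM4 minus wild type difference (log2) of every tested member of 6 gene lists at 0, 3 and 48 h; filled points passed in limma at that time, open points did not, and bars are list medians. In the salicylate, WRKY and receptor lists 16, 14 and 17 members were lower at 0 h, whereas at 3 h the medians were -0.015, 0.039 and 0.072.

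Plant defensins, small antimicrobial proteins induced by jasmonate and ethylene together, fell at 3 h. PDF1.2 had levels of -2.88 and -2.82 in 35S::RDM4, against -2.23 and -2.14 in wild type (log2 -0.67 ± 0.06, limma adjusted p = 0.00292). PDF1.2b, PDF1.2c and PDF1.3 fell by 0.90, 0.84 and 0.83 (adjusted p = 0.00742, 0.0187 and 0.0104). All 4 were also lower at 0 h (by 0.35 to 0.45) and higher at 48 h (by 0.83 to 1.52), each passing. The PDF1 genes are nearly identical in sequence and the probes may read one another, so the 4 falls are not independent. They were the 4 calls among 26 ethylene and defensin genes (2.94% of all genes were lower), whose median was -0.009, with either sign over the alternatives (0.007 after normexp correction, 0.029 with the mean of a gene's probes). Without 35S::RDM4 replicate 2 the calls of PDF1.2b, PDF1.2c and PDF1.3 ended (adjusted p = 0.0542 to 0.134), and without wild type replicate 1 those of PDF1.2c and PDF1.3 (0.0648 to 0.103). With slide as a fixed block those of PDF1.2, PDF1.2c and PDF1.3 ended (0.0507 to 0.0632).

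Genes for camalexin and indole glucosinolates, sulfur-containing defence compounds, gave falls: 4 of 18 fell, 0 rose, and the median was -0.19 with 14 negative values, against 2.94% of all genes lower. CYP81F2, which modifies indole glucosinolates, had -0.26 and -0.35 in 35S::RDM4 and 0.10 and 0.10 in wild type (log2 -0.40, limma adjusted p = 0.00691). CYP71A12, an early enzyme of camalexin synthesis, had -2.85 and -2.75 against -2.49 and -2.50 (log2 -0.30, adjusted p = 0.0203), and GSTF6, a glutathione transferase of that route, 2.61 and 2.46 against 2.84 and 2.83 (log2 -0.30, adjusted p = 0.0214). NAC042, a transcription factor that drives camalexin genes, fell by 0.21 (adjusted p = 0.0462). At 0 h 9 of the 18 were lower, with a median of -0.22. All 4 calls ended without 35S::RDM4 replicate 2 (adjusted p = 0.0518 to 0.211), those of GSTF6, CYP71A12 and NAC042 without wild type replicate 1 (0.107 to 0.157) or 2 (0.0868 to 0.175), and that of NAC042 without 35S::RDM4 replicate 1 (0.107). All 4 also ended with slide as a fixed block (0.0667 to 0.388).

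Of the iron and metal genes, 4 rose, among them FRO2 and IRT1 of iron uptake. FRO2, the ferric chelate reductase, had levels of -0.71 and -0.60 in 35S::RDM4, against -1.41 and -1.41 in wild type (log2 0.75 ± 0.09, limma adjusted p = 0.0094). IRT1, the transporter that takes up the reduced iron, had -1.19 and -1.22 against -1.81 and -1.80 (log2 0.60 ± 0.05, adjusted p = 0.0023), and its second probe gave 0.69. BHLH101, a transcription factor of iron deficiency, had -4.90 and -4.73 against -5.34 and -5.55 (log2 0.63, adjusted p = 0.00929). PCR1, a metal-resistance protein of the plasma membrane, had -5.08 and -5.05 against -5.96 and -5.99 (log2 0.91 ± 0.05, adjusted p = 0.000148). At 0 h FRO2 and IRT1 differed by -0.02 and 0.05 without passing and at 48 h by 0.78 and 0.64; PCR1 was lower by 1.28 at 0 h and higher by 2.31 at 48 h. In the whole list 4 of 40 genes rose and 3 fell, against 2.53% of all genes higher and 2.94% lower (the ferritin FER4 by 0.33, the metal exporter NRAMP4 by 0.19 and the vacuolar iron transporter-like VTL1 by 0.25), with a median of 0.017. FRO2 lost its call without 35S::RDM4 replicate 2 or wild type replicate 1 (adjusted p = 0.081 and 0.0521) and BHLH101 without 35S::RDM4 replicate 2 (0.0625). With slide, which coincides with genotype at 3 h, as a fixed block FRO2, IRT1 and BHLH101 lost their calls (0.0641 to 0.0732) and PCR1 did not. After normexp background correction all 4 rises lost their calls (limma adjusted p = 0.0765 to 0.496). From the deposited value table BHLH101 and PCR1 lost theirs (0.0869 to 0.213). The 3 falls ended without 35S::RDM4 replicate 2 or either wild type array (0.0904 to 0.199), those of NRAMP4 and VTL1 also without 35S::RDM4 replicate 1 (0.0531 to 0.0923), and all 3 with the slide block (0.0732 to 0.127).

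IRT1 and FRO2 are best known from the root epidermis, while the RNA was labelled as leaf. All 17 root markers tested were well above background on all 4 arrays, with group means of -5.92 to 5.63 in 35S::RDM4 and -5.96 to 5.82 in wild type. At 3 h the list's differences ran from -0.19 to 0.60 with a median of 0.041, and 11 of 17 were positive. In limma 5 had an unadjusted p below 0.05, against 26.6% of all genes. Past the threshold 2 rose, against 2.53% of all genes: IRT1 and TIP2;3, an aquaporin of root tonoplasts (0.36, limma adjusted p = 0.0306). At 0 h 7 of the 17 were lower in 35S::RDM4 (median -0.13; 8.51% of all genes were lower) and 0 higher. The change of the difference from 0 to 3 h passed as positive in 9 of the 17 and as negative in none, against 5.11% and 2.93% of all genes, the same direction as in FRO2 (0.77, adjusted p = 0.013) and IRT1 (0.54, adjusted p = 0.00452). With slide as a fixed block that count was 0, and over the alternatives it ran from 0 to 10. The part of root RNA in the rise of the iron genes was not tested.

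Genes of sugar starvation and senescence split. DIN11, a dark-induced dioxygenase, had levels of -4.54 and -4.63 in 35S::RDM4, against -3.41 and -3.49 in wild type, and was 2.2-fold lower (log2 -1.13 ± 0.05, limma adjusted p = 6.93e-05). Its difference was -0.26 at 0 h and -0.30 at 48 h, and the growth of the difference from 0 to 3 h was 0.88 downward (log2 -0.88, adjusted p = 0.000704). DIN2, a dark-induced beta-glucosidase, rose instead (-2.64 and -2.62 against -3.19 and -3.28, log2 0.60 ± 0.05, adjusted p = 0.0023). SAG13, a senescence-associated dehydrogenase, fell by 0.31, and so, in the starch list, did BAM5, the main beta-amylase activity of leaves (-1.27 and -1.24 against -0.72 and -0.55, log2 -0.62, adjusted p = 0.0153). AACT1 (AT5G61160), annotated as an anthocyanin acyltransferase, had -5.75 and -5.67 against -4.58 and -4.48 (log2 -1.18 ± 0.22, adjusted p = 0.0284), and CRK30, a receptor-like kinase, -6.76 and -6.70 against -6.05 and -6.20 (log2 -0.61, adjusted p = 0.0113). Of the 30 starvation and senescence genes 1 rose and 4 fell (DIN11, SAG13, MRD1 and NAC042; against 2.53% of all genes higher and 2.94% lower), with a median of 0.001 that was of either sign over the alternatives (-0.004 under quantile and -0.009 under median scaling). Without 35S::RDM4 replicate 2 the calls of BAM5, SAG13, AACT1 and CRK30 ended (adjusted p = 0.078 to 0.217), without wild type replicate 1 those of SAG13, AACT1 and CRK30 (0.0724 to 0.135), without wild type replicate 2 those of BAM5, SAG13 and AACT1 (0.0764 to 0.161) and without 35S::RDM4 replicate 1 those of SAG13 and AACT1 (0.0647 to 0.0793). The fixed slide block ended those of DIN2, BAM5, SAG13, AACT1 and CRK30 (0.0526 to 0.259).

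Of the late flavonoid genes, 3 fell at 3 h. GSTF12 (TT19), which carries anthocyanins to the vacuole, had levels of 1.2 and 1.19 in 35S::RDM4, against 1.61 and 1.53 in wild type (log2 -0.38, limma adjusted p = 0.00691), and its second probe gave -0.17. DFR and LDOX, successive enzymes of anthocyanin synthesis, fell by 0.22 and 0.26 (adjusted p = 0.0266 and 0.0393). All 3 were higher in 35S::RDM4 at 48 h, by 0.31 to 0.43. PAL4, an entry enzyme of phenylpropanoids, rose by 0.18 (adjusted p = 0.0313). In the list 1 of 28 genes rose and 3 fell, against 2.53% of all genes higher and 2.94% lower, 22 values were negative and the median was -0.074. Without 35S::RDM4 replicate 2 all 4 calls ended (adjusted p = 0.0534 to 0.242), without wild type replicate 1 or 2 those of DFR, LDOX and PAL4 (0.0987 to 0.164) and without 35S::RDM4 replicate 1 that of PAL4 (0.0604). All 4 also ended under the slide block (0.0732 to 0.0922).

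Photosynthesis genes gave 0 calls of 45 in limma, against 5.47% of all genes. In 1 of the 45 the unadjusted p was below 0.05, against 26.6% of all genes. Of them 44 had negative values and the median was -0.085, but the sign depended on the scaling and on single arrays: 23 were positive under quantile scaling (median 0.007), 39 with slide as a fixed block and 38 without wild type replicate 1.

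Hormone genes moved singly. MYC2, the master transcription factor of jasmonate responses, had 2.25 and 2.28 in 35S::RDM4, against 1.99 and 1.94 in wild type (log2 0.30, limma adjusted p = 0.011), and CYP94B3, which breaks jasmonate down, rose by 0.35, whereas AOC4 of jasmonate synthesis and CORI3, a coronatine-induced gene, fell by 0.14 and 0.31. In the abscisic acid list 3 of 32 rose: ABA3, which activates the last step of synthesis (0.29), and the phosphatases ABI2 (0.28) and HAB1 (0.21), which hold the pathway off. Auxin-conjugating enzymes differed in direction, with GH3.1 and GH3.5 (WES1) higher by 0.48 each and GH3.3 lower by 0.25; in all, 3 of 24 auxin genes rose and 3 fell, against 2.53% of all genes higher and 2.94% lower. BRI1, the brassinosteroid receptor, rose by 0.22, RGL3, a DELLA repressor, by 0.21, and GA3OX1 of gibberellin synthesis fell by 0.17. WES1 and BRI1 had second probes at 0.08 and 0.07. All of these calls, and that of YUC9 (-0.26), ended without 35S::RDM4 replicate 2 (adjusted p = 0.0951 to 0.271) or wild type replicate 2 (0.051 to 0.157), 13 of 14 without wild type replicate 1 (0.0996 to 0.218) and 10 without 35S::RDM4 replicate 1 (0.0542 to 0.109). The fixed slide block ended all 14 (0.0715 to 0.441).

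Small numbers of growth and oxidative stress genes passed, beside 2.53% of all genes higher and 2.94% lower. In ribosome biogenesis 3 of 23 rose and 0 fell, RID2 (0.40, limma adjusted p = 0.015), SWA2 (EDA25, 0.28) and the helicase RH36 (0.14). The second probe of RH36 differed by -0.02. In DNA replication and the cell cycle 2 of 36 rose, the replication licensing genes CDT1A (0.27) and MCM4 (0.23), and 2 fell, the mitotic cyclin CYCB1;2 (CYC1BAT, by 0.22) and TSO2, a ribonucleotide reductase subunit (by 0.20). CAT1, a catalase, had 3.47 and 3.40 in 35S::RDM4, against 3.02 and 2.84 in wild type (log2 0.51, adjusted p = 0.0306), with another probe at 0.02. It was 1 of 3 rises among 40 oxidative stress genes, with UGT73B4, a glucosyltransferase (0.26), and OXI1 (AGC2-1), a kinase of oxidative signalling (0.33), while GSTF6 fell. These last 2 rises ended without 35S::RDM4 replicate 2 or wild type replicate 1 (adjusted p = 0.135 to 0.163). The 8 calls from RID2 to CAT1 ended without 35S::RDM4 replicate 2 or either wild type array (adjusted p = 0.0715 to 0.247), and 5 of them without 35S::RDM4 replicate 1 (0.0529 to 0.0745). With slide as a fixed block all of these 10 rises and falls lost their calls (0.0709 to 0.37).

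Probes of the chromosome 2 loci numbered AT2G07667 to AT2G07835 were mostly lower at 3 h; the range was picked after its values were seen. In the Columbia genome this part of the chromosome holds a nuclear copy of the mitochondrial genome, so probes there can read mitochondrial transcripts as well, and nuclear and mitochondrial RNA cannot be told apart. Locus numbers do not follow genome order here, and which of the loci lie inside the copy was not determined: AT2G07741, ABCC13, a transporter, MCM5, a replication licensing gene, and AT2G07750 lie beyond AT2G07835 in the reference table's order (differences of -0.50, -0.08, -0.01 and 0.13, none passing). Of 41 genes tested 16 passed as lower (39.0%, against 2.94% of all genes) and 0 as higher, 39 had negative values, and the median was -0.29, with -0.24 on the first scan day and -0.34 on the second. AT2G07787, not well above background in 35S::RDM4, was at least 1.52-fold lower (levels -7.38 and -7.39 against -6.58 and -6.64, limma adjusted p = 0.00872). At 0 h the median was 0.11, with 4 calls, and at 48 h -0.068, with 0 calls (limma; 3 unadjusted p below 0.05). The number of calls was 1 after normexp correction, 3 from the deposited value table, 4 with no background filter, 1 with slide as a fixed block and 1 with only the compared arrays, and without single arrays it was 0 (35S::RDM4 replicate 2), 2 (wild type replicate 1), 2 (wild type replicate 2) and 13 (35S::RDM4 replicate 1); the median stayed between -0.35 and -0.23 in all 20 alternatives.

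**Figure D5:**
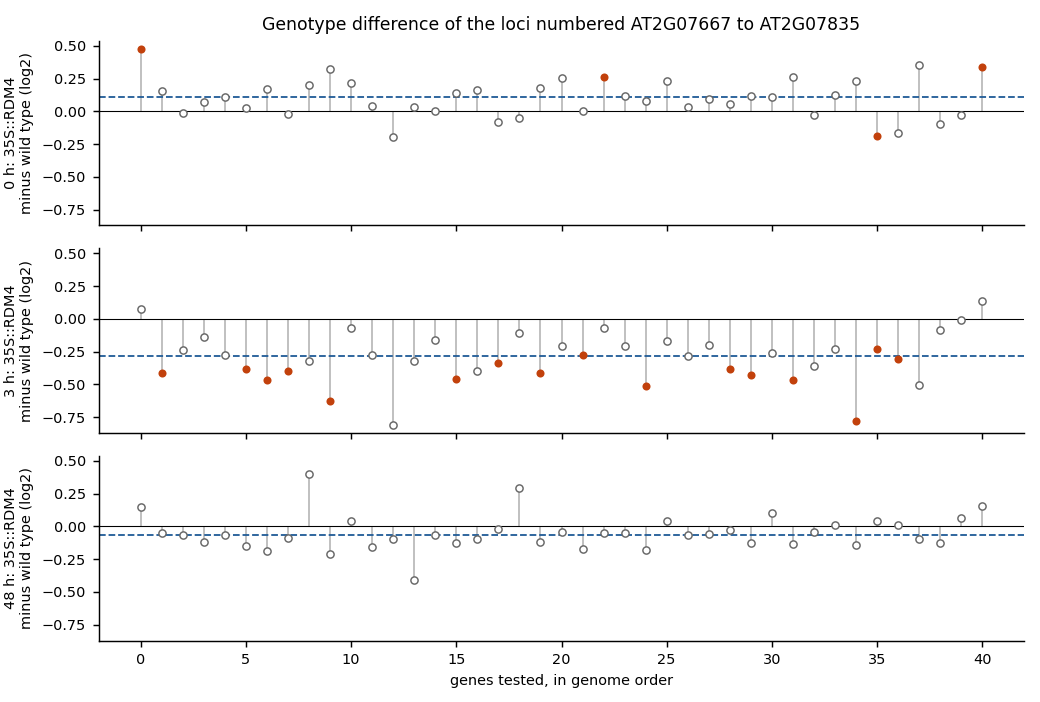
The 35S::RDM4 minus wild type difference (log2) at 0, 3 and 48 h for the 41 genes tested of the loci numbered AT2G07667 to AT2G07835, placed in genome order with equal spacing; filled points passed in limma and dashed lines are medians (0.11, -0.29 and -0.068). At 3 h 39 of the 41 lie below 0.

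Markers of other tissues than root gave 2 calls at 3 h, both of seed and embryo. Among all genes 5.47% passed at 3 h and 26.6% had an unadjusted p below 0.05 in limma. All 8 pollen and flower markers tested had negative values (median -0.24), 0 passed in limma and 4 had an unadjusted p below 0.05. Of 15 seed and embryo markers, GEA6 (EM6), a late embryogenesis protein, fell by 0.48 (adjusted p = 0.00741) and DOG1, a dormancy gene, rose by 0.23 (adjusted p = 0.0214); 14 of the 15 were well above background in each genotype. At 0 h 7 of these 15 were lower in 35S::RDM4 (median -0.81; 8.51% of all genes were lower), with 12 well above background in 35S::RDM4 and 14 in wild type, and the change from 0 to 3 h passed as positive in 6 and as negative in none (5.11% and 2.93% of all genes). The calls of GEA6, DOG1 and the root marker TIP2;3 ended without 35S::RDM4 replicate 2 (0.0577 to 0.18), those of TIP2;3 and DOG1 without either wild type array (0.0629 to 0.125), and all 3 with slide as a fixed block (0.0697 to 0.201). The pollen and flower markers AG, VGD1, PPME1, AGP11 and MS2 were dim in both genotypes. None of 26 vasculature, trichome and guard cell markers and none of 9 leaf markers passed (unadjusted p below 0.05 in 3 and 1).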

How the data were processed

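Cy3 intensity was measured on 12 one-colour Agilent arrays, read with Agilent Feature Extraction 10.7.1.1 per the file headers; the processed signal is the authors' deposited background-corrected intensity, and 11 of 12 columns of the deposited value table hold the median signal. The log2 of the processed signal minus each array's 75th percentile was computed. Control spots and 108 probes with outlier flags were dropped, probes well above background on both 3 h arrays of either genotype were kept, and a gene was read by its brightest kept probe (6102 genes had several). All 12 arrays were fitted with 6 group means in limma 3.58.1 (R 4.3.3; 8.40 degrees of freedom), with Benjamini-Hochberg adjustment over 20360 genes. The members and the 40 gene lists (1201 entries, 1111 tested, 43 dim in both genotypes, 11 not matched to a probe, 36 not matched to a locus) were chosen with earlier results of these data known. Genes were named by rule: RDM4, the DREB1 genes and 4 cold genes, the largest 12 rises and 12 falls with a symbol and 3 and 3 without, 5 and 5 changes of response, and up to 4 passing members per list. The number of arrays limits the precision. The probes' genome build differs from that of the reference table (TAIR10.1), which was used only for names and order. Alternatives are given at the end; normexp ran on the median signal and background with an offset of 50.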

Additional observations from a re-analysis of the deposited data

Results flagged for a closer look

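The genotype difference at 3 h differed from that at 0 h, by the test of that change in limma, in 1637 of 20360 genes (8.04%), 1040 positive and 597 negative. The share of positive calls was 63.5% and ran over the alternatives from 58.3% (median scaling, and a trended variance) to 78.8% (without 35S::RDM4 replicate 2), with 74.8% both after normexp correction and from the deposited value table. The largest positive changes (log2) were 5.56 in AT1G31510, 3.91 in AT1G28650, 3.77 in EC1.2, 3.46 in AT5G35195 and 3.14 in AT5G63740, all genes not well above background in wild type at 3 h, so their sizes are not measured folds. The largest negative changes were -1.92 in NUDT24, a nudix hydrolase, -1.03 in AT2G36854, -1.0 in AT2G07787, -0.98 in AT2G14247 and -0.96 in BGLU28, a beta-glucosidase. NUDT24 was not well above background in wild type at 0 h, nor AT2G07787 in 35S::RDM4 at 3 h, so the sizes and ranks of these 2 are not measured either. At 3 h itself only AT2G07787 of these 5 differed past the threshold. Groups of 2 arrays are too small for a test of single arrays that stand apart.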

How the results depend on the processing

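The count at 3 h was 1114 genes and became 17 after normexp correction, 111 from the deposited value table, 280 with no background filter, 71 with only the 4 compared arrays, 109 with slide as a fixed block, 1737 with a trended variance, 2272 with array weights, 28 with a 2-fold minimum and 31 to 895 without single arrays; the cause was not tested, beyond fewer arrays or more genes tested where the alternative is built that way. The count of changes from 0 to 3 h was 1637 and became 405, 507, 875 and 311 under the same first 3 settings and the slide block, 60 with a 2-fold minimum and 571 to 1556 without single arrays. Other alternatives stayed within 1.5 times. Among them was slide as a random block, with 1149 genes at 3 h, 1069 of them among the 1114. The RDM4 difference passed in all 20 (5.63 to 5.91, adjusted p at most 0.00139). Of the 1114 genes, 1106 kept their direction in every alternative. Over the 121 other named genes no value at 3 h reversed past a threshold, while 803 of 2411 values lost and 5 gained a call. Reversed were the changes of NUDT24 (0.058) and AT2G07787 (0.22) after normexp correction. The deviations of same-numbered arrays correlated at r = 0.004 between the genotypes at 3 h, at 0.181 to 0.25 among the wild type groups, whose same-numbered arrays share a slide, and at -0.065 to 0.165 in the other pairs of groups, so the numbers were not taken to pair the samples; with the replicate block 1592 genes passed at 3 h and 1864 as changed, with scan day as a block 1447 and 1724, and RDM4 differed by 5.70 under both. The replicate block ended no named call. Genes near background are limited by signal: 16 calls have only a bound because wild type was dim and 2 because 35S::RDM4 was.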

Other observations

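Lists not described above gave between 0 and 6 calls each at 3 h, against 2.53% of all genes higher and 2.94% lower. Of 36 nitrogen and sulfur genes 4 fell, among them APR1 and APR2, reductases of sulfate assimilation (by 0.29 and 0.17, limma adjusted p = 0.0203 and 0.0464), LSU1, a low-sulfur response gene (by 0.25, with another probe at 0.13), and LBD38, a repressor of nitrate genes (by 0.13), and 0 rose. Of 27 phosphate starvation genes 2 rose, the phosphate transporters PHT1;1 (0.23) and PHT1;9 (0.30), and 1 fell, GPT2, a glucose phosphate translocator (by 0.19). Of 22 genes of aliphatic glucosinolates, CYP79F2, a chain-specific first enzyme, rose by 0.42 and IMD1, of side chain elongation, fell by 0.30. In light signalling and flowering 2 of 36 rose, TEM1, a repressor of flowering (0.26), and PIF3, and in the clock list 1 of 25, BOA (0.27). In chlorophyll and carotenoid synthesis 1 of 25 fell, PORA (by 0.29, with another probe at 0.39). Of 53 sugar and starch genes 3 rose, BAM4 (0.31) among them, and 3 fell, TPPB (by 0.27) among them. The chaperone BIP1 was the only call of 24 heat shock genes (0.24) and HRA1 (AT3G10040) the only one of 18 low oxygen genes (-0.20). Of 41 membrane lipid genes 1 rose, GPAT8 of cutin synthesis (0.18, with another probe at 0.02), and 1 fell, LTP4. Cell wall genes (39) and splicing and export genes (31) gave 0 calls in limma, with 10 and 8 unadjusted p below 0.05, against 26.6% of all genes. All 17 genes named here apart from LTP4 and PIF3 lost their calls without 35S::RDM4 replicate 2 or wild type replicate 2 (adjusted p = 0.0534 to 0.283), 16 of them without wild type replicate 1 and 9 without 35S::RDM4 replicate 1; with slide as a fixed block all 17 ended (0.0689 to 0.186).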
